A study of Homo sapiens with 4 samples.

Results

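The genes described here are the NF-kB subunits NFKB1, NFKB2, RELA, RELB and REL and 5 genes whose products restrain or tune the pathway, NFKBIA, NFKBIE, NFKBIZ, TNFAIP3 and BIRC3. They were chosen by name, with earlier results of these data known. The probes were found through the accession that the array annotation gives each probe, which was looked up in RefSeq (GRCh38.p14). Of the 10 genes, 9 were found, of 19102 genes with a named probe in all, and NFKB2 was not matched and is not analysed here. RELA had 2 probes and the other 8 genes had 1 each, and the 10 probes were well above background on every one of the 4 arrays.

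RNA came from PC3, an established human prostate cancer cell line, infected with a lentivirus carrying an shRNA either against ALKBH3, a DNA demethylase of the AlkB family, or against GFP as the control, and then kept under puromycin selection for either 48 h or 96 h. Both arms had therefore been infected and selected, and which ALKBH3 shRNA was used is not given by the labels. Each combination of shRNA and time point was hybridised to 1 single-colour Agilent array, so each shRNA was repeated only across time, and p-values measure the spread between these arrays, including that between the time points. Arrays of the same time point shared a slide, so slide and time cannot be told apart, whereas each comparison of the shRNAs lay within a slide. Signals are given as log2 intensity relative to the 75th percentile of the array, and a log2 fold change is ALKBH3 shRNA minus control shRNA.

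NF-kB transcription factors are dimers of Rel-family proteins, held in the cytoplasm by inhibitors of the IkB family until an upstream kinase complex marks the inhibitor for destruction. RELA with the NFKB1 product p50 is the main dimer of the fast, canonical arm, and RELB with the NFKB2 product p52 is that of the slower, alternative arm. The freed dimers activate the genes of their own inhibitors, among them NFKBIA and TNFAIP3, which closes a negative feedback loop, and BIRC3 is a classical target in the same loop. Because the dimers are controlled by location and decay of the protein, the RNA level of a subunit is not a measure of its activity. PC3 cells are known for constitutive NF-kB activity.

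The DNA element bound by these dimers, the kappaB consensus, was looked up on both strands in the 250 bases before each start of the RefSeq promoter windows (GRCh38.p14), with overlapping matches counted once. Matches lay in 3498 of 35116 windows, or 9.96%, and in 7 of the 10 windows of the genes with a probe, or 70.0%. Counted by gene, 6 of the 7 with a window held a match, whereas RELA had none in its windows. RELB and NFKBIE had no window. The share by gene was not counted over all genes, and a gene with several windows has more chances of a match. The genes were chosen as members of this pathway, some of them known NF-kB targets, so their higher share is a description and not a test. The stretches around the matches are shown because feedback by NF-kB is known to act through elements of this kind, first for the 3 genes that rose and then for 3 that did not pass the test. Only the first window of each gene is shown, and another NFKBIZ window also held a match. Capitals mark the match, and a match is a string of letters, not evidence of binding.
NFKBIA: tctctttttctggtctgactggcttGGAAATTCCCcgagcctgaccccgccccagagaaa
TNFAIP3: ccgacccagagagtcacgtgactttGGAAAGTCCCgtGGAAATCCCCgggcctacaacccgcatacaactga
BIRC3: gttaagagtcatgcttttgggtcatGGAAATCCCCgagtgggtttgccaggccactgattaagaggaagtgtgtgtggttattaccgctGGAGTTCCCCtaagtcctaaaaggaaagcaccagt
NFKB1: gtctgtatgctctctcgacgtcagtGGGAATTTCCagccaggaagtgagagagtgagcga
REL: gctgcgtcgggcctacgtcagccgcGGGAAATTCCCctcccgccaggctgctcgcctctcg
NFKBIZ: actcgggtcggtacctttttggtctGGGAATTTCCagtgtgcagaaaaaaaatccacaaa

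The NFKBIA stretch is chr14:35404796-35404855 on the minus strand, with the match 81 to 72 bases before the start. The TNFAIP3 stretch is chr6:137867167-137867238 on the plus strand and holds 2 matches, at 67 to 58 and 55 to 46 bases before the start. In BIRC3, at chr11:102317260-102317383 on the plus strand, the 2 matches lie farther out, at 199 to 190 and 135 to 126 bases. The remaining stretches are on the plus strand of their chromosomes, with the match 49 to 40 bases before the start in NFKB1 (chr4:102501285-102501344), 47 to 37 bases in REL (chr2:60881502-60881562) and 223 to 214 bases in NFKBIZ (chr3:101827742-101827801). Matches were thus found both in genes that passed the test of RNA level and in genes that did not.

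The knockdown was visible on both probes of the targeted gene. On probe A_23_P35989 the ALKBH3 signal was -0.63 and -0.61 with control shRNA at 48 h and 96 h and -2.67 and -2.68 with ALKBH3 shRNA, a log2 fold change of -2.05 (SE 0.11, limma adjusted p = 0.228), and on A_33_P3225250 the log2 fold change was -1.63 (SE 0.13). Of the markers looked at for the PC3 label, KRT8, KRT18, EPCAM and VIM were well above background on all 4 arrays, and KLK3, which PC3 cells are known to lack, on none. Each of 6 leukocyte and stromal markers had a probe above background on all arrays, but at a low summed level. It was 0.903 and 0.633 times the 75th percentile with control shRNA at 48 h and 96 h. With ALKBH3 shRNA it was 1.11 and 0.927 times, against 124 to 131 times for KRT8, KRT18, EPCAM and VIM. By an unadjusted p below 0.05, COL1A1 was the one of these 6 that rose, by a log2 value of 0.71 (SE 0.27, limma adjusted p = 0.649), and EPCAM the one of those 4, by 0.98 (SE 0.24, limma adjusted p = 0.452). Without COL1A1 the summed level was 0.318 and 0.265 with control shRNA at 48 h and 96 h and 0.274 and 0.243 with ALKBH3 shRNA, lower after knockdown at both. PECAM1 was at -0.59 (limma adjusted p = 0.712). The part of such cells in the results below was not tested. In bulk RNA, a change in the number of cells of a kind and a change in RNA per cell cannot be told apart.

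NFKBIA, TNFAIP3 and BIRC3 rose after ALKBH3 knockdown, by 1.43- to 1.79-fold over both time points, at an unadjusted p below 0.05 in limma. The adjusted p passed for none of the 3, and for NFKBIA and BIRC3 once time point was entered as a block. The 4 subunits did not pass the test, and their fold changes lay between 0.914 and 1.25. The study used a 2-fold change and a p below 0.05 as cutoffs, taken here as the unadjusted p. None of the 9 genes reached them, which 0.886% of the 23244 probes tested passed upward and 0.232% downward.

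**Figure D1:**
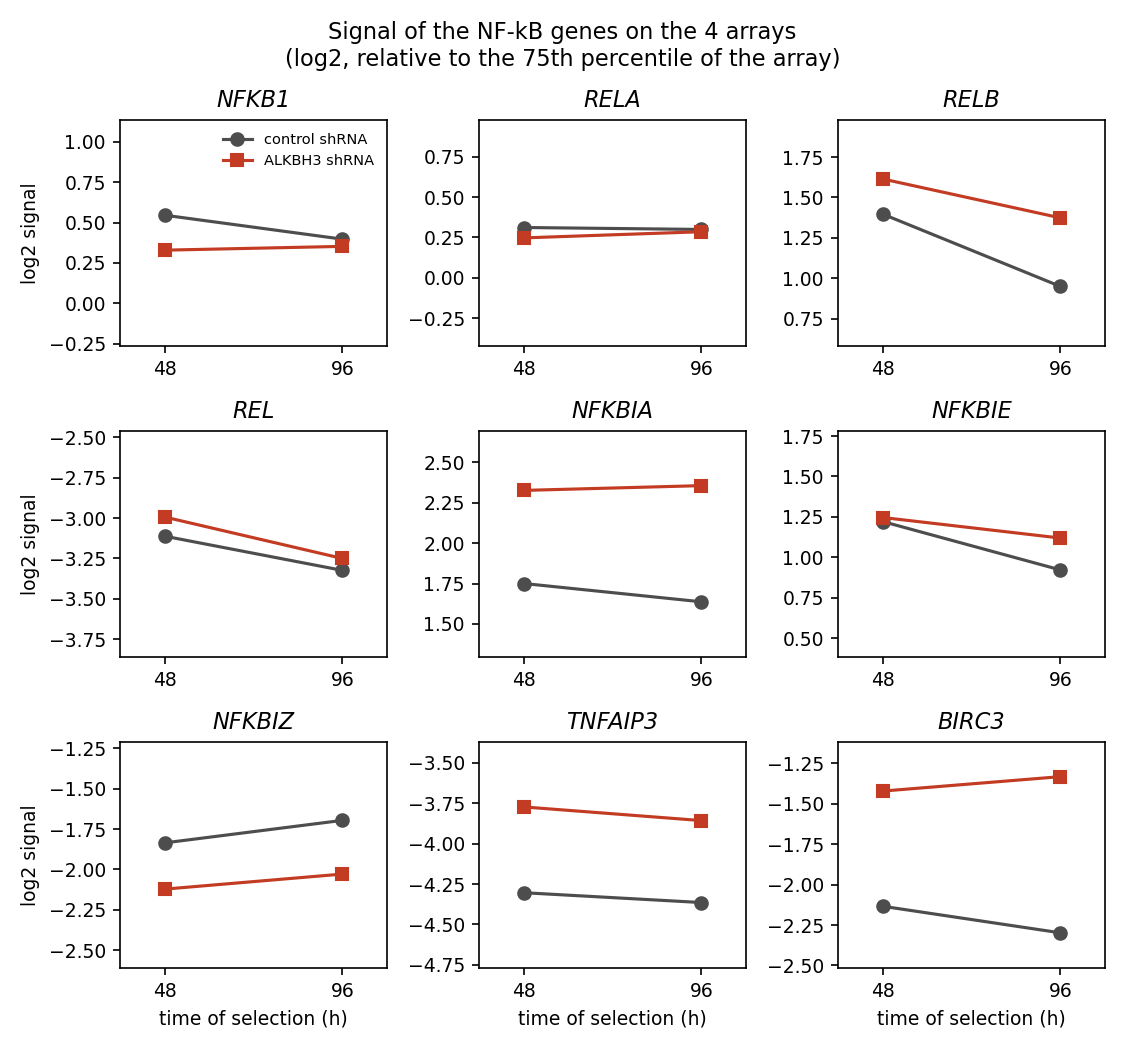
Log2 signal relative to the 75th percentile of the array (vertical axis, 1.4 log2 units in every panel) against the hours of puromycin selection, with 1 array per point, for control shRNA (grey circles) and ALKBH3 shRNA (red squares). The red points lie above both grey points in NFKBIA, TNFAIP3 and BIRC3 and below both in NFKB1, RELA and NFKBIZ.

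Among the subunits of the canonical arm, NFKB1, which encodes p105 and its product p50, had signals of 0.55 and 0.40 with control shRNA at 48 h and 96 h and of 0.33 and 0.35 with ALKBH3 shRNA. Both knockdown arrays lay below both controls, but the gap was 0.22 at 48 h and 0.04 at 96 h. The log2 fold change was -0.13 (SE 0.12, 95% interval -0.46 to 0.20, limma adjusted p = 0.908). RELA, the subunit that carries the main activation domain of the canonical dimer, was flatter still. Its signals were 0.31 and 0.30 with control shRNA and 0.25 and 0.29 with ALKBH3 shRNA on the brighter probe, with a log2 fold change of -0.039 (95% interval -0.34 to 0.26, limma adjusted p = 0.986). On the dimmer probe, A_33_P3209433, the signals were -0.90 and -0.96 against -1.01 and -0.91, which overlap, and the log2 fold change was -0.030 (SE 0.12, limma adjusted p = 0.987). The intervals of both probes reached from about -0.35 to 0.29 at their widest.

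REL, the c-Rel subunit best known from lymphocytes, was dim, with intensities between 234 and 287 units. Its signals were -3.11 and -3.32 with control shRNA and -2.99 and -3.25 with ALKBH3 shRNA, with overlapping groups and a log2 fold change of 0.096 (SE 0.16, 95% interval -0.32 to 0.51, limma adjusted p = 0.964). RELB, the activating subunit of the alternative arm and itself a known NF-kB target, had the highest fold change of the 4 subunits. Its signals were 1.40 and 0.95 with control shRNA and 1.61 and 1.37 with ALKBH3 shRNA, so that the 96 h knockdown array lay just below the 48 h control array. The log2 fold change was 0.32 (SE 0.20, 95% interval -0.21 to 0.86, limma adjusted p = 0.811). Compared within slides, with a block for the time point, the SE was 0.10 and the unadjusted p lay below 0.05, but the adjusted p of 0.153 did not pass. In control cells RELB also changed most with time among the 9 genes, by -0.45 between 48 h and 96 h, against -0.24 in knockdown cells.

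The IkB inhibitors did not move together. NFKBIA, which encodes IkB-alpha, the inhibitor that is destroyed and remade in each round of canonical signalling, had signals of 1.75 and 1.64 with control shRNA and 2.33 and 2.36 with ALKBH3 shRNA. The knockdown arrays lay 0.58 and 0.72 above the controls of the same time point, and the groups did not overlap. The log2 fold change was 0.65 (SE 0.12, 95% interval 0.33 to 0.97), a 1.57-fold rise (limma adjusted p = 0.388).

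NFKBIA, NFKB1 and RELA were each printed in 10 spots on the array, of which 8 to 10 were usable. For NFKBIA the spots ran from 1.65 to 1.85 and from 1.59 to 1.72 on the control arrays and from 2.23 to 2.40 and from 2.21 to 2.46 on the knockdown arrays, so that no knockdown spot came down to a control spot. For RELA the spots of the 4 arrays covered nearly the same range, 0.17 to 0.40. For NFKB1 the control spots at 48 h, 0.49 to 0.62, stood above the knockdown spots, 0.22 to 0.45, but at 96 h the ranges, 0.31 to 0.48 and 0.25 to 0.46, overlapped. Spots share 1 RNA sample, so they show the precision of an array and are not replicates.

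**Figure D2:**
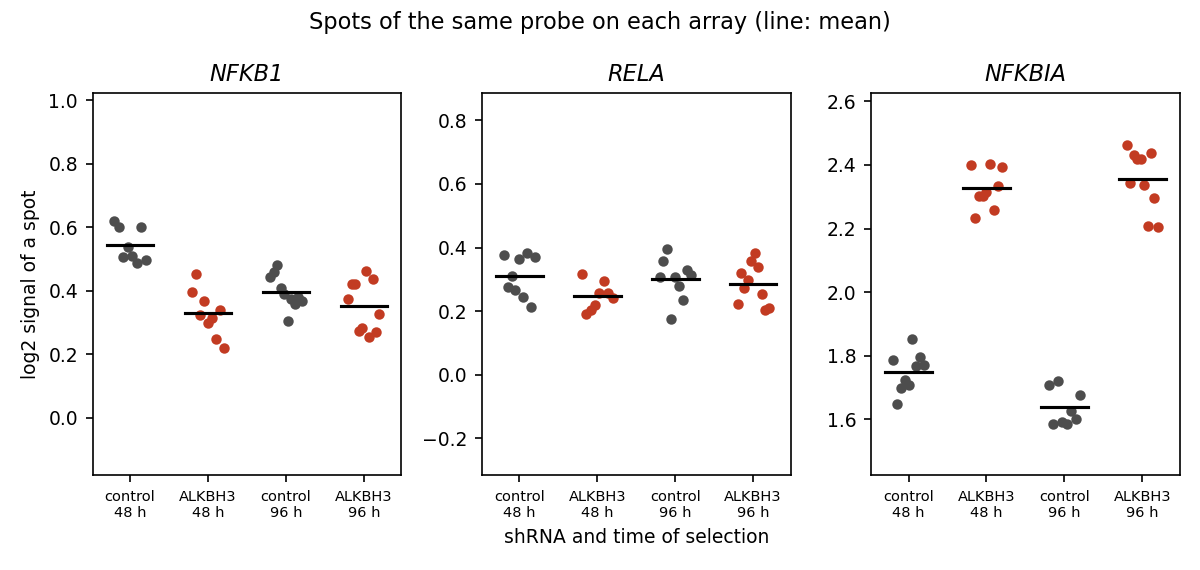
Log2 signal of single spots (vertical axis, relative to the 75th percentile of the array) for the 3 genes whose probe was printed in 10 spots, on each of the 4 arrays, with the mean as a line. The NFKBIA spots of the knockdown arrays lie between 2.21 and 2.46 and those of the control arrays between 1.59 and 1.85, while the RELA spots of the 4 arrays share a range.

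NFKBIE, which encodes IkB-epsilon, a slower inhibitor of the same family, had signals of 1.22 and 0.92 with control shRNA and 1.25 and 1.12 with ALKBH3 shRNA. The groups overlapped, and the log2 fold change was 0.11 (SE 0.16, 95% interval -0.30 to 0.52, limma adjusted p = 0.952). NFKBIZ, which encodes IkB-zeta, a nuclear member of the family that acts as a cofactor for a subset of target genes, was the only one of the 9 genes with a fall of more than 0.2 log2 units at both time points. Its signals were -1.84 and -1.70 with control shRNA and -2.12 and -2.03 with ALKBH3 shRNA, without overlap. The log2 fold change of -0.31 (SE 0.13, 95% interval -0.64 to 0.03) missed the unadjusted threshold (limma adjusted p = 0.684). Within slides, by the blocked fit, it passed the unadjusted threshold and not the adjusted one (adjusted p = 0.131).

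The regulators that work through ubiquitin both rose. TNFAIP3 encodes A20, which edits ubiquitin chains on signalling proteins upstream of the IkB kinase and is a feedback brake of the pathway. Its signals were -4.30 and -4.36 with control shRNA and -3.77 and -3.86 with ALKBH3 shRNA, with a rise of 0.53 at 48 h and 0.51 at 96 h. The log2 fold change was 0.52 (SE 0.12, 95% interval 0.20 to 0.83), a 1.43-fold rise (limma adjusted p = 0.430). TNFAIP3 was the dimmest of the genes, with intensities of 109 and 114 units in the controls and 167 and 165 units after knockdown, and the size of its change depended on how background was removed. With normexp background correction the log2 fold change was 0.23, with quantile normalization added 0.24, and with the values normalized by the authors 0.30, and in none of these did it pass an unadjusted p of 0.05. Nor did it pass without the ALKBH3 array at 48 h, at 0.48, or without the control array at 96 h, at 0.49.

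BIRC3 encodes cIAP2, a ubiquitin ligase that is recruited to TNF receptor complexes and protects against cell death. Its signals were -2.13 and -2.30 with control shRNA and -1.42 and -1.33 with ALKBH3 shRNA, and its intensities rose from 490 and 476 units to 854 and 951 units. The rise was 0.71 at 48 h and 0.97 at 96 h. The log2 fold change of 0.84 (SE 0.13, 95% interval 0.50 to 1.18) was the largest of the 9 genes, a 1.79-fold rise (limma adjusted p = 0.361). Its close relative BIRC2, which encodes cIAP1 and was counted with the upstream genes, had a log2 fold change of 0.36 (SE 0.13, 95% interval 0.02 to 0.69, limma adjusted p = 0.633), and the difference from BIRC3 was not tested. BIRC2 passed an unadjusted p of 0.05 in 8 of 15 ways of processing and in 0 of the 4 fits with an array left out, where it ranged from 0.27 to 0.44.

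**Figure D3:**
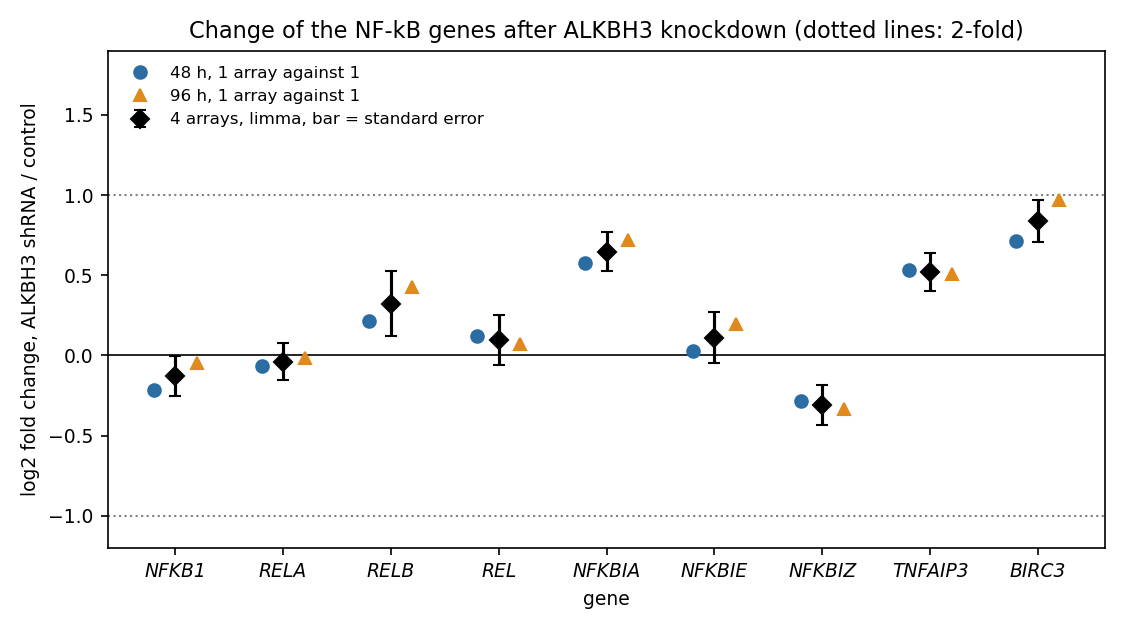
Log2 fold change of ALKBH3 over control shRNA for each gene (vertical axis), over the 4 arrays with the standard error from limma (black diamonds) and at 48 h (circles) and 96 h (triangles) for 1 array against 1. NFKBIA, TNFAIP3 and BIRC3 lie between 0.51 and 0.97 at both time points, below the dotted 2-fold line, and the 4 subunits lie between -0.22 and 0.42.

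Set beside the whole array, 3 of the 9 genes were higher at an unadjusted p below 0.05, a call that 4.32% of the probes tested received, and 0 were lower, against 3.33%. With normexp background correction the whole-array split of these calls, 1005 probes higher and 775 lower, became 623 and 748. At a 1.5-fold change with the same p, 2 genes passed, NFKBIA and BIRC3, against 2.56% of probes. Of the probes tested, 98.1% had a lower log2 fold change than BIRC3, 96.7% a lower one than NFKBIA and 95.2% a lower one than TNFAIP3, whereas 7.18% had a lower one than NFKBIZ. Both knockdown arrays lay above both controls in 3 genes, NFKBIA, TNFAIP3 and BIRC3, as in 17.4% of probes, and below both controls in 3, NFKB1, RELA and NFKBIZ, as in 18.6%. The median log2 fold change was 0.11 over the 9 genes and 0.0028 over all probes tested. For the 4 subunits alone it was 0.028. The 9 genes were chosen with earlier results of these data known, so these counts and shares are a description and not a test.

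After adjustment over all probes, 0 probes passed without a block (limma, smallest adjusted p = 0.0917), while 1005 were higher and 775 lower at an unadjusted p below 0.05. Blocking on time point, 2 of the 9 genes passed the adjusted p upward, BIRC3 (adjusted p = 0.0399) and NFKBIA (adjusted p = 0.0459), as did 1.97% of probes, and 0 of the 9 downward, against 0.977%. TNFAIP3 came close, with an adjusted p of 0.0558. The blocked fit left 1 residual degree of freedom per probe, against 2 without a block. Its p-values thus lean on the variance that limma pools over the probes. At an unadjusted p below 0.05 the block gave 4 genes upward, against 12.4% of probes, and 1 downward, against 10.5%, with RELB and NFKBIZ as the added ones. With 2 arrays against 2, an exact permutation test of a single gene cannot give a two-sided p below 0.333.

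**Figure D4:**
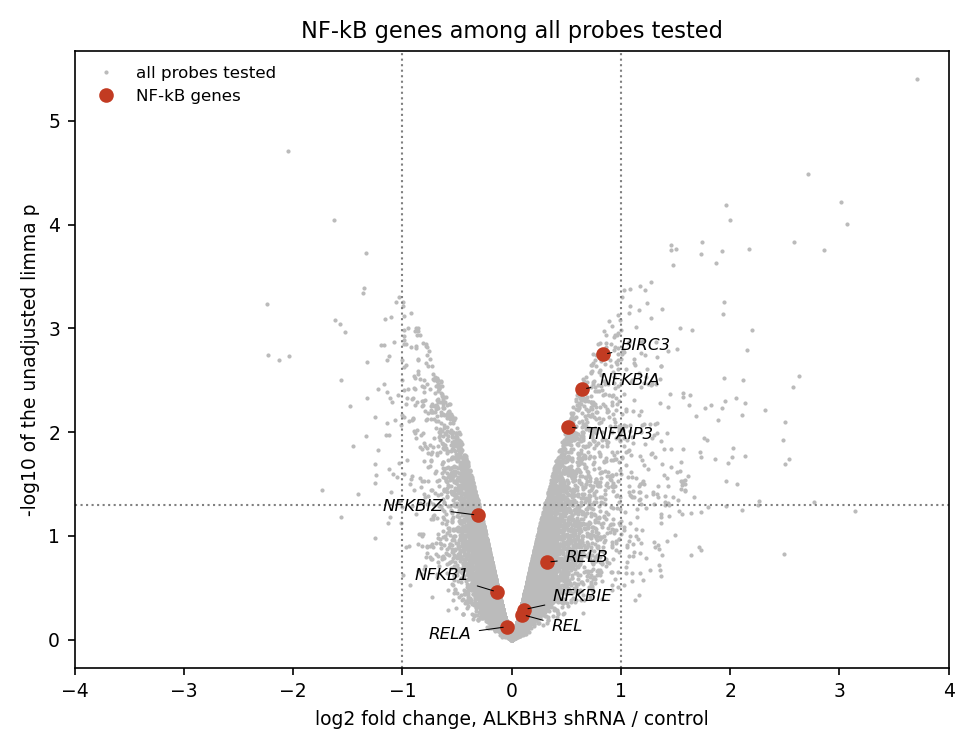
Log2 fold change of ALKBH3 over control shRNA (horizontal axis) against -log10 of the unadjusted limma p (vertical axis) for all probes tested (grey) and the 9 NF-kB genes (red). BIRC3, NFKBIA and TNFAIP3 lie above the dotted line, which marks an unadjusted p of 0.05, and inside the dotted 2-fold lines, and the other 6 genes lie below it.

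The direction of each of the 9 genes was the same at 48 h and 96 h, as for 68.7% of the probes tested. Between the time points the knockdown effect on RELB moved from 0.22 to 0.42, that on NFKBIE from 0.03 to 0.20 and that on BIRC3 from 0.71 to 0.97. The effect on NFKB1 moved from -0.22 to -0.04 and that on NFKBIA from 0.58 to 0.72. For RELA it went from -0.06 to -0.01 and for REL from 0.12 to 0.07. The effects on TNFAIP3 and NFKBIZ moved by less than 0.05. These shifts compare single arrays and were not tested. For scale, the median size of the log2 difference over all probes was 0.15 between the shRNAs at either time point and 0.18 between the control arrays.

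Genes that carry the signal to NF-kB were called about as often as all probes. Of 25 genes of the IkB kinase complex and upstream signalling, all tested, 0 passed the 2-fold cutoff, 1 was higher at an unadjusted p below 0.05, BIRC2, and 0 were lower, against 4.32% and 3.33% of all probes. Their median log2 fold change was 0.016, and between -0.018 and 0.0045 with an array left out. The next largest in size among those of like direction at both time points were the members of the linear ubiquitin ligase, namely RBCK1 at 0.34 (limma adjusted p = 0.881), SHARPIN at -0.23 (limma adjusted p = 0.762) and RNF31 at 0.20 (limma adjusted p = 0.908). At 96 h alone RBCK1 was at 0.086 and RNF31 at 0.092, and without the ALKBH3 array at 48 h, which sets the remaining knockdown array against both controls and not within its slide, the values were -0.028 and -0.0087. The other RBCK1 probes were higher after knockdown at both time points, with log2 fold changes of 0.57 and 0.43 (limma adjusted p = 0.715 and adjusted p = 0.860).

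Of 17 other IkB proteins and brakes of the pathway, 16 were tested, 0 passed the 2-fold cutoff, 1 was higher at an unadjusted p below 0.05 and 0 were lower, again near the shares of all probes, 4.32% and 3.33%. The median was 0.067, and between 0.013 and 0.071 with an array left out. The one was PDLIM2, a nuclear ubiquitin ligase for RELA, with a log2 fold change of 0.47 (SE 0.17, limma adjusted p = 0.633). It passed an unadjusted p of 0.05 in 8 of 15 ways of processing and not with quantile normalization, median centring, no filter, the t-test of the methods or 3 of the 4 arrays left out, and it was at 0.29 without the ALKBH3 array at 96 h. The deubiquitinases CYLD, at -0.26 (SE 0.15, limma adjusted p = 0.776), and OTULIN, at -0.32 (SE 0.19, limma adjusted p = 0.788), did not pass the test. Blocked on time point, both passed the unadjusted threshold and not the adjusted one (adjusted p = 0.188 for each), and OTULIN ranged from -0.54 to -0.10 with an array left out. N4BP1 was at 0.69 at 48 h and 0.04 at 96 h (limma adjusted p = 0.826).

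NF-kB target genes outside the feedback loop were counted last. The list was chosen with earlier results of these data known, so its counts are a description and not a test. Of 29 such genes 23 were tested, of which 4 were higher past the 2-fold cutoff and 1 was lower, against 0.886% and 0.232% of all probes, and 7 and 1 had an unadjusted p below 0.05, against 4.32% and 3.33%. One of the 4, CCL20, was tested only because it was above background after knockdown, and it also entered the other counts and the median of the 23. With the filter on all 4 arrays 22 genes were tested, and 3 were higher and 1 lower past the cutoffs. At the unadjusted p 6 were then higher and 1 lower, and the median was 0.25. The median of the 23 was 0.29, and it ranged from 0.12 without the control array at 96 h to 0.60 without the ALKBH3 array at 96 h. Only the genes past the cutoffs are named here, so they are the extremes of the list and not typical of it. Of the cytokine genes, CSF2 (GM-CSF) rose 5.98-fold (SE 0.23 on the log2 scale, limma adjusted p = 0.247) and LTB (lymphotoxin beta) 3.99-fold (SE 0.16, limma adjusted p = 0.247). IL23A, a subunit of interleukin 23, rose 2.58-fold (SE 0.23, limma adjusted p = 0.363). CSF2 and LTB were dim in the controls, at 138 and 99.9 units and at 123 and 109 units. The size of their rise depended on how background was removed. With normexp background correction the log2 fold change of CSF2 was 1.98, against 2.58 without it. That of LTB was 1.52, against 1.996. Both stayed past the 2-fold cutoff. CCL20, a chemokine, was not well above background with control shRNA. Taking the lowest signal well above background as the control level, it was 1.81-fold higher after knockdown, which does not reach 2-fold. With normexp background correction its log2 fold change was 0.59, against 2.58 without it, so 1.81-fold is not a firm lower limit. IL1B, which encodes interleukin 1 beta, moved the other way, at -1.25 (SE 0.36, limma adjusted p = 0.535). Leaving out the control array at 48 h gave 8 genes up and 0 down past the cutoffs, and leaving out the ALKBH3 array at 96 h gave 6 and 0. With time point as a block 8 of the 23 genes, CCL20 among them, passed the adjusted p upward and 1 downward, against 1.97% and 0.977% of all probes.

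The order of the 9 genes by fold change was stable at its ends and not in its middle. NFKBIA stayed between 0.59 and 0.70 over 15 ways of processing the arrays and BIRC3 between 0.76 and 0.92, both with an unadjusted p below 0.05 in 15 of 15. TNFAIP3 ran from 0.23 to 0.56 and passed in 10 of 15, and NFKBIZ from -0.38 to -0.23 and passed in 1 of 15. RELB ran from 0.10 to 0.54 and passed in 1, while REL and NFKBIE changed sign.

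**Figure D5:**
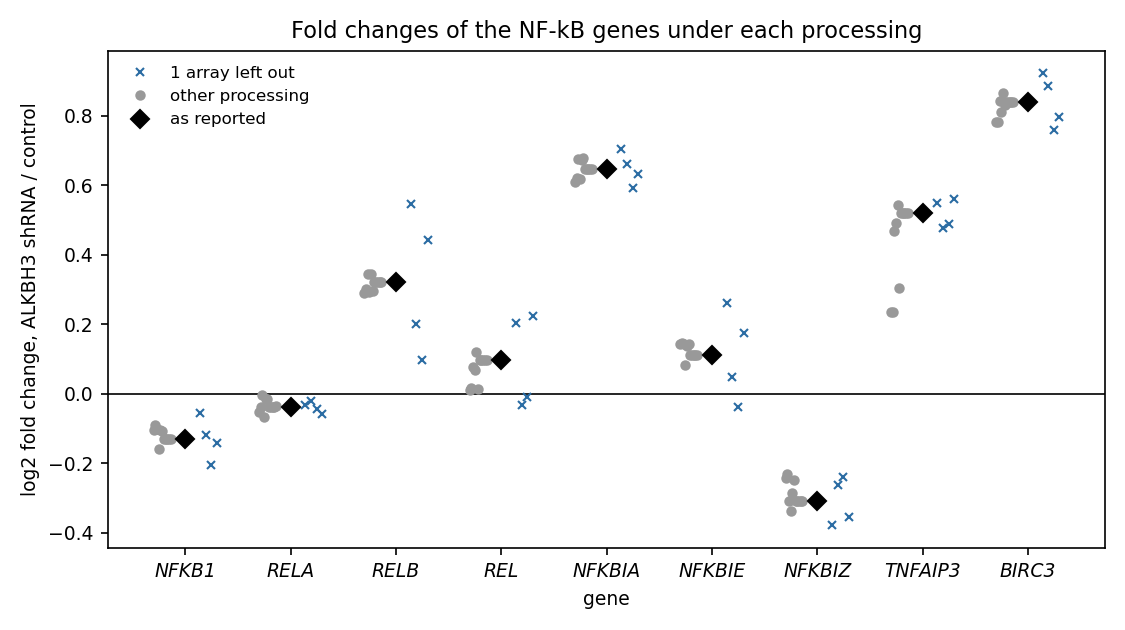
Log2 fold change of ALKBH3 over control shRNA (vertical axis) for each gene as reported (black diamonds), under other background correction, normalization, filters, blocks or tests (grey circles) and with 1 array left out (blue crosses). NFKBIA and BIRC3 lie at 0.59 or above throughout, whereas the points of REL and NFKBIE fall on both sides of 0.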

How the data were processed

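The authors deposited the spot intensities of each array from Agilent Feature Extraction (version 10.7.3.1 in the file headers), corrected for background on that array and not normalized between arrays, with spot flags (a yes or no score for outliers, saturation and signal well above background). They also deposited a table of log2 values normalized between the arrays. The number of arrays limits the precision.

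Flagged spots were removed (180 to 379 of the 43118 spots on an array that were not controls), and 0 of the 43118 were saturated. Log2 intensities were centred on the 75th percentile of the array, and the spots of each probe were averaged. Tests were run on a probe when at least 0.5 of its spots were well above background on both arrays of 1 shRNA. R 4.3.3, limma 3.58.1 (lmFit, eBayes, no covariate) and the data.table package (1.17.8) were used, and p-values were adjusted by Benjamini-Hochberg over 23244 probes. The probe of highest mean signal stands for a gene. Each probe was named by accession through the RefSeq table, which named 24910 of 34127 probes.

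The members and lists were chosen with earlier results of these data known. Of the upstream, brake and target lists, the text names genes past the cutoffs, or otherwise up to 4 with the largest change of like direction at both time points. Same-numbered arrays share a time point and slide, and their deviations from the group means correlated at 0.66 across probes, so a fit blocked on time point is given too. The alternatives were normexp (offset 50) with and without quantile normalization, quantile normalization, median centring, the 75th percentile over probes above background on all arrays, the authors' values, no filter or a filter on 4 arrays, the mean over probes of a gene, a 1.5-fold cutoff, the block, the methods' t-test and leaving out each array. The steps were tested on simulated data with independent noise on each array and no effect of time point or slide. That setting cannot show how the fit without a block behaves when arrays of a time point vary together.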

Additional observations from a re-analysis of the deposited data

Results flagged for a closer look

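On the dimmer RELA probe, A_33_P3209433, the difference between ALKBH3 and control shRNA was -0.11 at 48 h and 0.05 at 96 h on the log2 scale. The directions were opposite, a shift of 0.15 between the time points. It compares single arrays, and the difference between the time points was not tested. On the brighter RELA probe the values were -0.064 and -0.014.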

How the results depend on the processing

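Of the alternatives for the fold changes of the 9 genes, 125 kept the direction and the side of the threshold, 5 lost an unadjusted p below 0.05, all for TNFAIP3, 2 gained one, RELB and NFKBIZ with the block, and 3 reversed. The reversals were REL at -0.032 without the ALKBH3 array at 48 h and -0.0097 without the control array at 96 h, and NFKBIE at -0.038 without the latter. With an array left out, REL ranged from -0.032 to 0.22, NFKBIE from -0.038 to 0.26, RBCK1 from -0.028 to 0.71 and RNF31 from -0.0087 to 0.41, and the median over the 9 genes from -0.0097 without the control array at 96 h to 0.26 without that at 48 h. With time point as a replicate block, 4 genes were higher and 1 lower at an unadjusted p below 0.05. The count higher was 2 with normexp, with normexp and quantile normalization, with the authors' values and without the ALKBH3 array at 48 h or the control array at 96 h. The 1.5-fold cutoff gave 2 genes higher. The causes were not tested. Over all probes, 206 higher and 54 lower past the cutoffs became 76 and 27 with normexp, 82 and 26 with normexp and quantile normalization, 118 and 42 with the authors' values, 123 and 44 with the filter on 4 arrays, 495 and 113 without a filter, 60 and 25 with the methods' t-test and 232 to 418 and 52 to 134 with an array left out, and 0 passed the adjusted p except with the block (685). By the unadjusted p alone, 1005 higher and 775 lower became 623 and 748 with normexp. A lone array was assumed to vary like the others. Signal over background limits REL and TNFAIP3, the dimmest of the 9 genes. It also limits the fold sizes given for the target genes CSF2 and LTB, which were dim in the controls, and CCL20, which was not well above background there.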
